A study of Mus musculus with 51 samples.

Results

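The interval around Grb10 and Ddc was taken as 280 kb of chromosome 11 (GRCm38), from beyond the end of Fignl1 to upstream of Grb10, and every called peak of 3 histone marks that touched it was kept, whatever its values. This gave 36 peaks of 144952 on the autosomes, of which 23 of 90111 held at least 20 strain-specific reads in 1 allele of a wild-type library and could be tested for a difference between the alleles. The 23 comprised 5 of 9 H3K4me3 peaks, 1 of 1 H3K27me3 peak and 4 of 6 H3K36me3 peaks in epiblast, and 8 of 14, 2 of 2 and 3 of 4 in extra-embryonic ectoderm. The interval also spans 280 windows of 1 kb, of 2462755 in the genome, and 6 annotated genes.

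Native low-input ChIP-seq was done on epiblast (Epi) and extra-embryonic ectoderm (ExE, the trophoblast-derived tissue above the epiblast) dissected from mouse embryos at embryonic day 6.5, in pools of 4 epiblasts or 8 ExE. Embryos came from reciprocal crosses of C57BL6/Babr (B6) and CAST/Ei (CAST), written mother first as B6/CAST and CAST/B6. The third cross, matDKO/CAST, had CAST fathers and mothers that were floxed on both alleles of Dnmt3a and Dnmt3b and carried Zp3-cre, which is active in the growing oocyte, so that the DNA methylation normally laid down there was missing from the maternal alleles. These mothers were mostly B6 with some 129 alleles left, and the embryos inherited the deleted Dnmt3a and Dnmt3b alleles from them. Each cross, tissue and mark had 2 libraries from separate pools (18 groups, 36 libraries), beside 15 input libraries of unprecipitated chromatin. The spread behind the p-values of the fitted models was estimated with information shared over all peaks or genes tested. For total signal it was also shared over the groups of a mark. In the main allelic fits the 2 alleles of a library entered as separate columns without a block. These p-values therefore do not measure the spread between 2 pools alone. ChIP libraries held 2.09 to 22.9 M mapped reads and 0.271 to 6.82 M strain-specific reads in autosomal peaks, and inputs held 7.17 to 90.6 M mapped reads.

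H3K4me3 marks active promoters, H3K27me3 is laid down by Polycomb repressive complex 2 at silent promoters, and H3K36me3 covers the bodies of transcribed genes. Grb10 encodes an adaptor that binds the activated insulin and IGF1 receptors and restrains growth. It is imprinted: most tissues use the maternal allele from the upstream promoter, whereas neurons use the paternal allele from internal promoters beside a CpG island that is methylated in oocytes. Ddc, next to it, encodes aromatic L-amino acid decarboxylase, which makes dopamine and serotonin, and it is known as a paternally expressed gene of the fetal heart. Fignl1, an AAA ATPase that acts in homologous recombination, closes the interval on the other side. Imprinting of this kind rests on germline methylation, which is kept in the embryo by ZFP57, a zinc finger protein that recognises TGCCGC when its CpG is methylated.

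In the GENCODE M21 annotation all 3 coding genes lie on the minus strand. Grb10 (ENSMUSG00000020176) runs from 12038683 down to 11930508, Ddc (ENSMUSG00000020182) from 11898144 to 11814101 and Fignl1 (ENSMUSG00000035455) from 11808962 to 11787431. Grb10 has internal coding starts at 12027971, 12026732 and 12026324, inside an intron of its longer transcripts. Further coding starts lie at 12037401, close to its upstream end and under the same H3K4me3 peaks as the upstream start, and at 11970642, deeper in the gene. The other 3 genes are 1700042O10Rik, which lies antisense inside Ddc from 11868123 to 11885321, and the small RNA genes Gm25058 and Gm24036.

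The DNA under the 3 promoters that the results turn on is printed here so that their CpG content can be seen, with every CpG in capitals and the minus strand read 5′ to 3′. The upstream Grb10 promoter comes from the RefSeq promoter table (GRCm38, chr11:12037429-12037670) and holds 40 CpGs in 242 bases, exon bases left out. This stretch lies just upstream of the coding start at 12037401, and so inside the gene as annotated from 12038683. The Ddc promoter comes from the same table (chr11:11898145-11898394) and holds 1 CpG in 250 bases. The third is the most CpG-dense stretch of 300 intronic bases in the internal Grb10 peak (GRCm38 genome, chr11:12026325-12026624), with 49 CpGs, immediately upstream of the start at 12026324.
Grb10 upstream promoter: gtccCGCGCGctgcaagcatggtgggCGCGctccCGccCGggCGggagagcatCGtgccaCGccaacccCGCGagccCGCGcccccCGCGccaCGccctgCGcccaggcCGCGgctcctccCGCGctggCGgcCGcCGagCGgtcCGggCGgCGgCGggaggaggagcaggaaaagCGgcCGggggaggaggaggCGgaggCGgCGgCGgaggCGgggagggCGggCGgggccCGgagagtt
Ddc promoter: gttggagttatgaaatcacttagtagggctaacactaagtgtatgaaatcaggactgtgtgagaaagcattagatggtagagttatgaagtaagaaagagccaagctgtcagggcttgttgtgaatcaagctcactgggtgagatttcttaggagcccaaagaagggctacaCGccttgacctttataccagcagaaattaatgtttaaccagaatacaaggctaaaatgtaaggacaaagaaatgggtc
Grb10 internal promoter region: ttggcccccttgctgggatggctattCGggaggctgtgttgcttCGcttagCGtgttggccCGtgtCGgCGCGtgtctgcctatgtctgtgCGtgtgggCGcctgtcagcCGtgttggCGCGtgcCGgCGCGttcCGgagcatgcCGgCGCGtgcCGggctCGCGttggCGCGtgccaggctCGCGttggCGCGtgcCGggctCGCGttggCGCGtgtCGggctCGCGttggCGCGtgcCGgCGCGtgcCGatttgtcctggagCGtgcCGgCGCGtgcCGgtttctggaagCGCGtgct

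Over the 3000 bases of the internal Grb10 H3K4me3 peak of ExE there were 167 CpGs, a number reached by 0.595% of the 3530 ExE H3K4me3 peaks of the same length (median 52). The peak at the upstream Grb10 start, of 5500 bases, held 276 CpGs, reached by 1.64% of 1161 peaks of its length. The Ddc start peak held 34 CpGs in 3500 bases, and 89.7% of 2628 peaks of that length held at least as many. TGCCGC, searched on both strands and containing a CpG itself, occurred 4 times in the internal Grb10 peak (1.22% of peaks of its length held as many, and 41.3% held it at all), 5 times in the upstream Grb10 peak (4.31% held as many) and 1 time in the Ddc start peak (48.6% held it). None of the 3 stretches printed above holds TGCCGC, and a count of letters says nothing of binding.

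Before the alleles are compared, one pool needs to be set apart. In B6/CAST Epi replicate 1 the maternal allele took 58.4% of the H3K4me3 reads and 61.3% of the H3K27me3 reads in the peaks of chromosome 11 outside the interval, 6.79 and 8.68 percentage points above the share over all autosomal peaks of the same libraries. In the remaining 34 libraries this gap lay between -0.755 and 1.55 points. Chromosome 11 also took 9.54% of the reads of that H3K4me3 library against 7.86% in replicate 2, 7.54% against 5.95% for H3K27me3, and 6.52% in its input against 5.34 to 5.78% in the other 14 inputs, whereas the H3K36me3 library numbered 1 had 5.52% against 5.48%. The main Grb10 and Ddc results that use these libraries are therefore given without them as well. Over all autosomal peaks the maternal share was 48.8 to 52.6% in wild-type libraries and 51.1 to 55.8% in matDKO/CAST, and the tests were scaled to it.

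**Figure D1:**
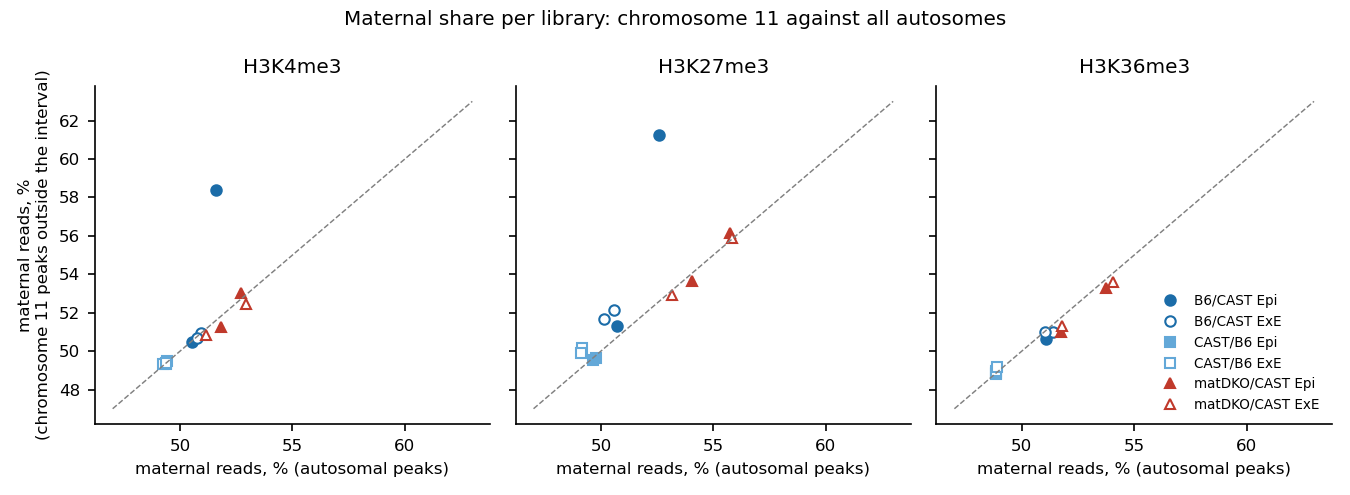
Maternal share of strain-specific reads in chromosome 11 peaks outside the interval (y axis, percent) against that in all autosomal peaks (x axis, percent), 1 panel a mark and 1 point a library, with colour and shape for the cross, filled points for Epi, open points for ExE and a dashed line where both shares are equal. In B6/CAST Epi replicate 1, H3K4me3 and H3K27me3 lie 6.79 and 8.68 points above the line, and the other 34 libraries lie within -0.755 and 1.55 points of it.

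The wild-type tissues carried the promoter marks of their labels. Summed promoter H3K4me3 over 8 measured epiblast markers was 154 to 194 RPKM (reads scaled to the length of the region and the mapped reads of the library) in the 4 wild-type Epi libraries and 56.2 to 90.8 in ExE, and over 10 ExE markers it was 101 to 151 in Epi and 154 to 205 in ExE. The 7 visceral endoderm markers summed to 40.3 to 61.1 RPKM in Epi and 48.5 to 79.2 in ExE, and the 4 markers of ectoplacental cone and giant cells to 5.16 to 8.61 and 5.64 to 9.26. The 3 mesoderm markers summed to 25.8 to 62.3 in Epi and 26.2 to 36 in ExE, and the 3 decidua markers to 16.1 to 23.5 and 11.3 to 15.3. In matDKO/CAST the ectoplacental cone and giant cell markers summed to 3.36 to 3.52 RPKM in ExE, below all 4 wild-type ExE libraries, and the other sums overlapped those of the wild type in the same tissue. Between matDKO/CAST and B6/CAST in ExE the median log2 difference of these ectoplacental cone and giant cell markers was -0.01, with 0 called by limma. Under quantile normalization the median was 0.03, and Ascl2 alone was called, as lower. The lower sum is therefore not read as a fall of all 4 markers or of a cell type. In such bulk samples a mark on fewer cells and less of the mark per cell cannot be told apart.

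To ask which parent's copy carried each mark, maternal and paternal reads were compared in each wild-type cross with edgeR, and a peak was called where the Benjamini-Hochberg adjusted p over all informative peaks of its table was under 0.05. In B6/CAST 8 of the 23 informative peaks were called (5 maternal, 3 paternal), where the background was 6.88% of 90111 peaks, and in CAST/B6 8 were called (5 maternal, 3 paternal) against 8.24%. The same parent was called in both crosses at 6 peaks, 4 maternal and 2 paternal, against 0.447% of all peaks. All 6 lie on Grb10: the H3K4me3 peak at its upstream start, the H3K27me3 domain over that start and the H3K36me3 of its body, each in both tissues. A joint fit of both crosses, with terms for parent and strain, called a parental effect at 9 peaks (5 maternal, 4 paternal) against 1.88%, and a strain effect at 4 against 13.1%. The 9 were those 6 with the internal Grb10 H3K4me3 peak of ExE, the H3K36me3 peak upstream of Grb10 in Epi and an ExE H3K27me3 domain at Ikzf1 and Fignl1. In matDKO/CAST 0 of the 23 were called by edgeR and 0 by DESeq2, 1 had an unadjusted edgeR p under 0.05, and 3.05% of all peaks were called. The parental bias of 6 peaks differed from B6/CAST, against 0.599%. The B6/CAST libraries enter this comparison as well as the tests within the wild type.

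**Figure D2:**
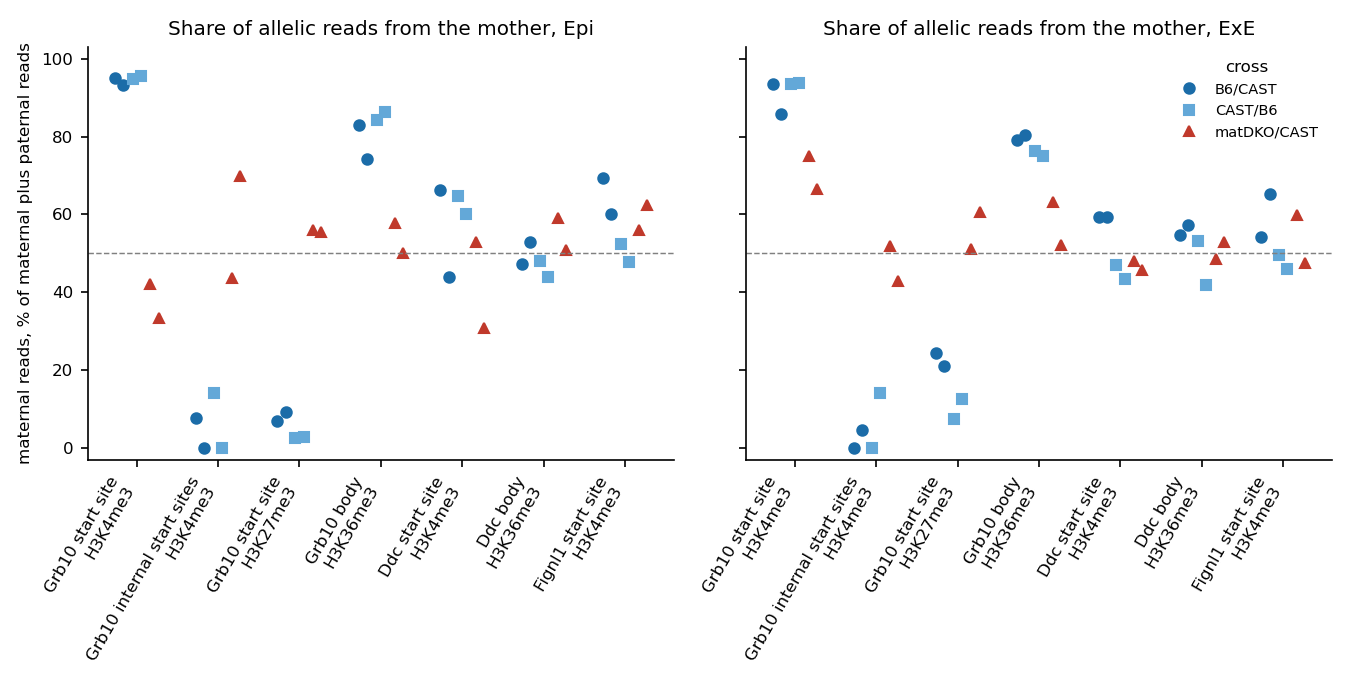
Maternal share of the strain-specific reads in percent (y axis) at the regions of the interval (x axis), Epi on the left and ExE on the right; each point is 1 library, coloured by cross, and the dashed line marks equal shares. At the upstream Grb10 start the wild-type H3K4me3 points lie between 85.7 and 95.7% and the H3K27me3 points between 2.50 and 24.6%, while H3K27me3 of matDKO/CAST lies between 51.1 and 60.6%.

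The upstream Grb10 promoter carried H3K4me3 almost wholly on the maternal copy in both tissues. In Epi (peak at 12031500 to 12039500) the maternal share was 95.1% (78 of 82 reads; 95% Wilson interval 88.1 to 98.1%) and 93.3% (56 of 60; 84.1 to 97.4%) in the B6/CAST pools and 94.7% (71 of 75; 87.1 to 97.9%) and 95.7% (22 of 23; 79.0 to 99.2%) in the CAST/B6 pools. In ExE (12034000 to 12039500) it was 93.6% (44 of 47; 82.8 to 97.8%) and 85.7% (30 of 35; 70.6 to 93.7%) in B6/CAST and 93.5% (29 of 31; 79.3 to 98.2%) and 93.8% (30 of 32; 79.8 to 98.3%) in CAST/B6. All 8 libraries stood above an equal share in either direction of the cross. Wilson intervals here and below cover counting error only. On the log2 scale of maternal over paternal reads, the joint parental effect was 4.10 ± 0.34 (SE, n = 4 libraries) in Epi (edgeR adjusted p = 1.5e-08) and 3.47 ± 0.35 in ExE (adjusted p = 4.67e-11). Without B6/CAST Epi replicate 1 the Epi value was 3.98 (edgeR adjusted p = 5.66e-06). The strain effect was 0.14 ± 0.42 in Epi (edgeR adjusted p = 0.956), 0.25 without that pool (adjusted p = 0.947), and 0.36 ± 0.45 in ExE (adjusted p = 0.646).

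The internal promoter lies 12.2 kb further into the gene (centre of the ExE peak), and there the H3K4me3 was on the paternal copy. In ExE (12025000 to 12028000) the B6/CAST pools had 0 maternal of 18 reads, which allows a share of up to 16.7%, and 1 of 21 (4.76%; Wilson interval 0.846 to 22.7%), and the CAST/B6 pools had 0 of 6, which allows up to 50%, and 1 of 7 (14.3%; 2.57 to 51.3%). In Epi (12025000 to 12027500) the reads were too few for the test, at 1 of 13 and 0 of 10 maternal in B6/CAST (the 0 allows up to 30%) and 1 of 7 and 0 of 2 in CAST/B6. No wild-type library had more than 1 maternal read, so the internal and upstream promoters of the same gene were marked on opposite parental copies. The joint parental effect in ExE was -4.14 ± 0.72 (edgeR adjusted p = 0.000119). Within the crosses it was -4.99 ± 0.88 in B6/CAST (edgeR adjusted p = 0.000211) and -3.25 ± 1.07 in CAST/B6, which missed the threshold (adjusted p = 0.0709) with 13 reads in all.

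H3K27me3 over the upstream Grb10 start was on the paternal copy, opposite to H3K4me3. In Epi (12010500 to 12050500) the maternal share was 7.01% (27 of 385 reads; Wilson interval 4.86 to 10.0%) and 9.37% (31 of 331; 6.68 to 13%) in B6/CAST and 2.50% (19 of 760; 1.61 to 3.87%) and 2.88% (15 of 521; 1.75 to 4.70%) in CAST/B6. In ExE (12013000 to 12062000) it was 24.6% (97 of 395; 20.6 to 29.0%) and 21.0% (73 of 347; 17.1 to 25.6%) in B6/CAST and 7.47% (49 of 656; 5.70 to 9.74%) and 12.7% (51 of 403; 9.76 to 16.3%) in CAST/B6. The lower share was in CAST/B6 in each tissue, and 3 of the 4 ExE libraries lay above every Epi library. The joint parental effect was -4.40 ± 0.16 in Epi (edgeR adjusted p = 4.33e-16), -4.26 without B6/CAST Epi replicate 1 (adjusted p = 1.46e-167), and -2.53 ± 0.10 in ExE (adjusted p = 2.98e-81). The B6 allele carried more H3K27me3 than the CAST allele, with a strain effect (CAST over B6, log2) of -0.79 ± 0.18 in Epi (edgeR adjusted p = 0.00554), -0.94 without B6/CAST Epi replicate 1 (adjusted p = 0.000186), and -0.69 ± 0.11 in ExE (adjusted p = 1.59e-08). With the allele columns scaled to chromosome 11 itself the Epi strain effect was -0.66 and no longer passed (edgeR adjusted p = 0.124), nor did it pass without CAST/B6 replicate 1 (-0.73, adjusted p = 0.201) or 2 (-0.83, adjusted p = 0.0743).

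The body of Grb10 carried H3K36me3 mainly on the maternal copy. In Epi (11927000 to 12036000) the maternal share was 82.9% (155 of 187, 76.8 to 87.6%) and 74.3% (375 of 505, 70.3 to 77.9%) in B6/CAST and 84.4% (480 of 569, 81.1 to 87.1%) and 86.3% (493 of 571, 83.3 to 88.9%) in CAST/B6. In ExE (11890000 to 12036000) it was 79.2% (445 of 562, 75.6 to 82.3%) and 80.5% (313 of 389, 76.2 to 84.1%) in B6/CAST and 76.2% (483 of 634, 72.7 to 79.3%) and 75.1% (356 of 474, 71.0 to 78.8%) in CAST/B6. All 8 libraries were above an equal share, between 74.3 and 86.3%, and the tissues overlapped. The joint parental effect was 2.14 ± 0.09 in Epi (edgeR adjusted p = 4.26e-55) and 1.80 ± 0.08 in ExE (adjusted p = 5.89e-86), smaller on this scale than at the promoter, though these peaks also cover bases outside Grb10. Total H3K36me3 over the gene body was 0.955 to 1.56 RPKM in wild-type libraries, against 0.526 to 0.672 in their inputs. The part of the paternal reads that comes from background was not tested. A strain effect of 0.48 ± 0.10 towards CAST was called in Epi by edgeR (adjusted p = 0.000314) but not by DESeq2 (adjusted p = 0.102), and not by edgeR without B6/CAST replicate 2 (0.20, adjusted p = 0.662) or CAST/B6 replicate 2 (0.41, adjusted p = 0.0702). Upstream of the gene a separate Epi H3K36me3 peak (12044500 to 12069500) had maternal shares of 69.6% (16 of 23, 49.1 to 84.4%) and 61.3% (46 of 75, 50 to 71.5%) in B6/CAST and 79.5% (58 of 73, 68.8 to 87.1%) and 79.7% (55 of 69, 68.8 to 87.5%) in CAST/B6. Its joint parental effect was 1.37 ± 0.21 (edgeR adjusted p = 3.35e-07), called in CAST/B6 (adjusted p = 2.01e-10) and not in B6/CAST (adjusted p = 0.416). The matching ExE peak (12044000 to 12051000) had 51 maternal of 62 reads over the 4 wild-type libraries and was too shallow for the test.

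**Figure D3:**
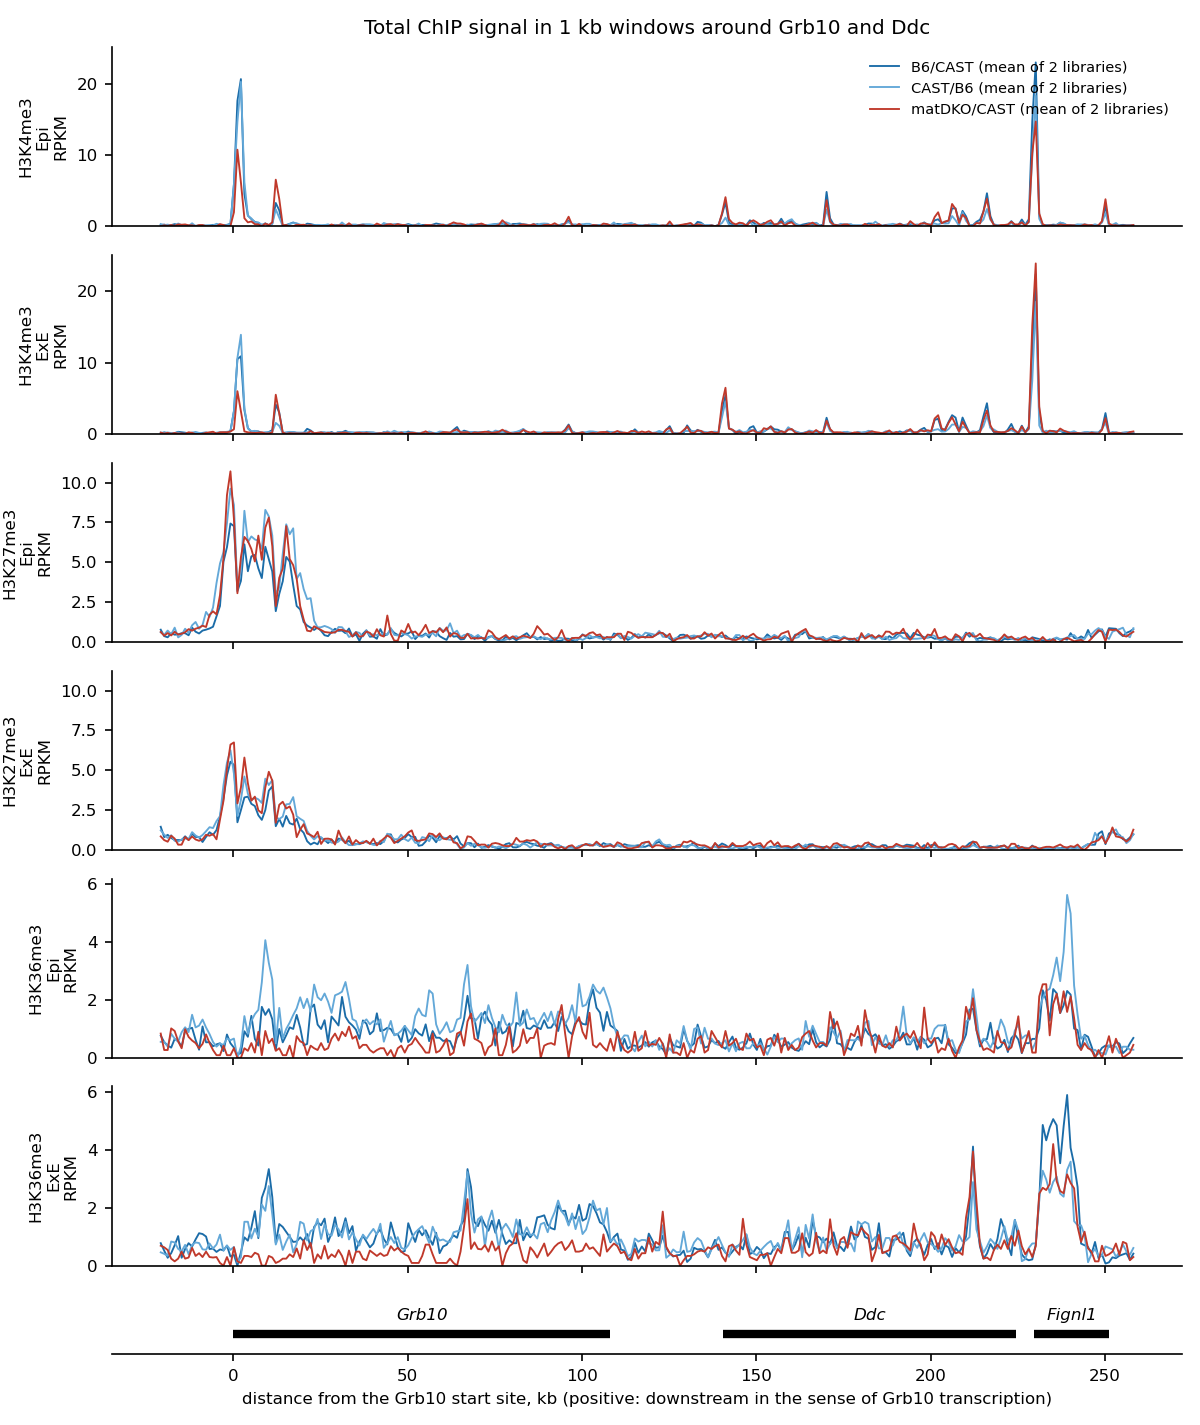
H3K4me3, H3K27me3 and H3K36me3 in RPKM (y axis) in 1 kb windows across the interval, by distance in kb from the Grb10 start (x axis, positive into the gene), 1 panel a mark and tissue; lines are means of 2 libraries, coloured by cross, and black bars at the bottom mark the genes. H3K4me3 rises at the starts of Grb10, Ddc and Fignl1, H3K27me3 forms a broad domain over the Grb10 start, with a dip at the internal promoter, and H3K36me3 over Grb10 is lower in matDKO/CAST.

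No parental effect was called at Ddc. At its annotated start the maternal share of H3K4me3 in Epi (11896500 to 11899000) was 66.2% (51 of 77 reads; Wilson interval 55.1 to 75.8%) and 44.0% (11 of 25; 26.7 to 62.9%) in B6/CAST and 64.7% (11 of 17; 41.3 to 82.7%) and 60% (3 of 5; 23.1 to 88.2%) in CAST/B6. In ExE (11895500 to 11899000) it was 59.4% (85 of 143, 51.2 to 67.1%) and 59.4% (41 of 69, 47.6 to 70.2%) in B6/CAST and 47% (31 of 66, 35.4 to 58.8%) and 43.3% (26 of 60, 31.6 to 55.9%) in CAST/B6. The libraries lie on both sides of an equal share in each tissue. The joint parental effect was 0.67 ± 0.50 in Epi and 0.11 ± 0.19 in ExE, and neither passed (edgeR adjusted p = 1 and 0.999). Without B6/CAST Epi replicate 1 the Epi value was 0.22. Over the Ddc body the ExE H3K36me3 peak (11813000 to 11886500) had maternal shares of 54.7% (134 of 245, 48.4 to 60.8%) and 57.4% (109 of 190, 50.3 to 64.2%) in B6/CAST and 53.2% (142 of 267, 47.2 to 59.1%) and 41.9% (91 of 217, 35.6 to 48.6%) in CAST/B6, with a joint effect of 0.11 ± 0.10 (edgeR adjusted p = 0.977). The 2 informative Epi H3K36me3 peaks that touch Ddc had joint effects of -0.07 ± 0.12 (11794000 to 11830000) and 0.19 ± 0.26 (11834000 to 11849000; edgeR adjusted p = 0.998 for both). The first also covers the start of Fignl1, whose body held 1.08 to 1.84 RPKM of H3K36me3 in wild-type Epi against 0.529 to 0.695 for that of Ddc, so its value cannot be read as that of Ddc alone. In wild-type ExE the Ddc body held 0.798 to 0.888 RPKM, and the wild-type inputs over it held 0.506 to 0.669 over both tissues. How many of the H3K36me3 reads at Ddc stand above background was not tested, and background reads would be shared near equally by the copies. At the 5 informative H3K4me3 peaks over internal Ddc start sites the joint effects ranged from -0.03 ± 0.25 to 0.81 ± 0.37, and none passed. None of these 5 peaks covers the internal coding starts of Ddc at 11890408 and 11890369. The ExE peak over those (11889000 to 11891000) held 17 maternal and 19 paternal wild-type reads and was too shallow for the test. The highest of the 5 joint effects, in Epi, was 0.79 without B6/CAST Epi replicate 1. A p that misses the threshold does not show equal marking, and the Epi start peak held 76 maternal and 48 paternal reads over the 4 libraries.

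Fignl1, at the far end of the interval, was marked on both copies, and the highest of its shares is in the Epi pool set apart above. Its H3K4me3 start peak had maternal shares of 69.3% (250 of 361, 64.3 to 73.8%) and 60.1% (125 of 208, 53.3 to 66.5%) in the Epi B6/CAST pools and 52.4% (120 of 229, 45.9 to 58.8%) and 47.8% (22 of 46, 34.1 to 61.9%) in CAST/B6, and in ExE 54.3% (210 of 387, 49.3 to 59.2%) and 65.1% (157 of 241, 58.9 to 70.9%) in B6/CAST and 49.7% (86 of 173, 42.3 to 57.1%) and 46.0% (98 of 213, 39.4 to 52.7%) in CAST/B6. The ExE peak was called in B6/CAST at 0.46 ± 0.14 by edgeR (adjusted p = 0.0317) and not by DESeq2 (adjusted p = 0.337), and the joint parental effect was 0.17 ± 0.12 (adjusted p = 0.999). The ExE H3K27me3 domain over Ikzf1 and the end of Fignl1 (11735000 to 11792000) had maternal shares of 55.4% (50.4 to 60.2%) and 52.8% (170 of 322, 47.3 to 58.2%) in B6/CAST and 39.0% (225 of 577, 35.1 to 43.0%) and 37.1% (128 of 345, 32.2 to 42.3%) in CAST/B6. The B6 allele had the larger share in all 4 libraries, with a strain effect (CAST over B6) of -0.41 ± 0.08 (edgeR adjusted p = 3.39e-05). The joint parental effect of -0.26 ± 0.08 (edgeR adjusted p = 0.0378) was lost when library totals replaced TMM (adjusted p = 0.100) and with DESeq2 (adjusted p = 0.273).

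The tissue difference in parental bias was tested per library, Epi against ExE, over 9 regions by an exact two-sided permutation test whose smallest p is 0.0286 with 4 against 4. At the Grb10 start the log2 bias of H3K27me3 was nearer to equal in ExE (ExE minus Epi, 1.83, exact p = 0.0571, adjusted p = 0.257 over the 9 regions), and that of H3K4me3 was smaller in ExE (-0.59, exact p = 0.0571, adjusted p = 0.257). Without B6/CAST Epi replicate 1 these were 2.03 and -0.52 (exact p = 0.114 for both). The test pools the reciprocal crosses, whose H3K27me3 shares differed, and within each cross both ExE libraries had a higher maternal share of H3K27me3 than both Epi libraries. Matched by cross and replicate number, which is shared in name only, the 4 H3K27me3 differences averaged 1.83 (exact paired permutation p = 0.125, the smallest that 4 pairs allow). Over the Grb10 body the H3K36me3 bias differed by -0.41 (exact p = 0.2). With this smallest p and 9 regions the adjustment left hardly any room for a call, so the adjusted values do not show that the tissues were alike.

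In embryos of mothers without oocyte DNA methylation, H3K27me3 over the Grb10 start lay on both parental copies in near equal shares, and so did the reads of the H3K36me3 libraries over the Grb10 body. H3K27me3 had a maternal share of 55.9% (348 of 622 reads; Wilson interval 52.0 to 59.8%) and 55.6% (65 of 117; 46.5 to 64.2%) in the Epi matDKO/CAST pools and 51.1% (157 of 307; 45.6 to 56.7%) and 60.6% (151 of 249; 54.5 to 66.5%) in ExE. H3K36me3 over the body had 57.9% (33 of 57, 45.0 to 69.8%) and 50% (55 of 110, 40.8 to 59.2%) in Epi and 63.3% (62 of 98, 53.4 to 72.1%) and 52.1% (85 of 163, 44.5 to 59.7%) in ExE. Total H3K36me3 over the gene body in these 4 libraries, 0.434 to 0.558 RPKM, was below the 0.564 to 0.604 RPKM of the inputs of that cross, so how many of these reads stand above background was not tested, and the same holds for the H3K36me3 differences from B6/CAST that follow. Every one of these 8 libraries lay outside the range of the wild-type libraries of its mark and tissue. Scaled to each library's autosomes, the maternal over paternal log2 ratio was 0.06 ± 0.18 and 0.05 ± 0.16 for H3K27me3 and 0.05 ± 0.26 and 0.24 ± 0.23 for H3K36me3, in Epi and ExE, and none passed (edgeR adjusted p = 0.964, 0.941, 0.995 and 0.919).

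The difference from B6/CAST, which has the same strain on each parental side apart from 129 alleles, was tested as an interaction. It was 3.64 ± 0.34 for H3K27me3 in Epi (edgeR adjusted p = 5.64e-08), 3.39 without B6/CAST Epi replicate 1 (adjusted p = 2.52e-10), and 1.89 ± 0.21 in ExE (adjusted p = 1e-12). For H3K36me3 it was -1.63 ± 0.30 in Epi (edgeR adjusted p = 0.000394) and -1.68 ± 0.24 in ExE (adjusted p = 1.87e-05). The Epi H3K36me3 call was lost with DESeq2 (adjusted p = 0.383) and without matDKO/CAST replicate 3 (-1.42, edgeR adjusted p = 0.567), while the direction held. The separate Epi H3K36me3 peak upstream of the gene, maternal in the wild type, had more paternal reads in matDKO/CAST. Its maternal share was 27.3% (3 of 11 reads; Wilson interval 9.75 to 56.6%) and 28.6% (8 of 28; 15.3 to 47.1%). This is the peak with an unadjusted p under 0.05 in matDKO/CAST, at a log2 ratio of -1.45 ± 0.51 (edgeR unadjusted p = 0.00409, adjusted p = 0.275). Its difference from B6/CAST was -2.18 ± 0.59 (edgeR unadjusted p = 0.00032, adjusted p = 0.154), and neither passed.

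The H3K4me3 reads of matDKO/CAST were few at the upstream start and lay on both copies at the internal one. At the upstream start the maternal share was 42.1% (8 of 19 reads; Wilson interval 23.1 to 63.7%) and 33.3% (2 of 6; 9.68 to 70%) in Epi and 75.0% (6 of 8; 40.9 to 92.9%) and 66.7% (2 of 3; 20.8 to 93.8%) in ExE. At the internal promoter it was 43.8% (14 of 32; 28.2 to 60.7%) and 70% (7 of 10; 39.7 to 89.2%) in Epi and 52.0% (13 of 25; 33.5 to 70%) and 42.9% (6 of 14; 21.4 to 67.4%) in ExE. The maternal copy, with at most 1 read a library at the internal promoter in wild type, had 6 to 14 there in matDKO/CAST. The interaction was -4.66 ± 0.82 at the upstream start in Epi (edgeR adjusted p = 0.00194), -4.42 without B6/CAST Epi replicate 1 (adjusted p = 0.00188), and 4.73 ± 1.08 at the internal promoter in ExE (adjusted p = 0.0384). With 3 and 8 reads the upstream start in ExE did not pass (-1.85 ± 1.21, edgeR adjusted p = 1), which does not show that the crosses were alike there. The Epi call was lost without either matDKO/CAST pool (adjusted p = 0.542 without replicate 1 and 0.101 without replicate 2). The ExE internal call was lost without B6/CAST replicate 1 (adjusted p = 0.963) or 2 (0.395), without matDKO/CAST replicate 2 (0.249), and with DESeq2 (0.30).

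Scaled to the strain-specific reads of the library (RPM, reads scaled to library depth), the copies differed between the crosses by unequal amounts, given here as values with no test. The maternal copy of the H3K27me3 domain had 22.2 to 34.0 RPM in Epi of B6/CAST and 240.1 to 310.5 in matDKO/CAST, while the paternal copy had 295 to 329 and 192 to 244. The maternal copy of the H3K36me3 peak in Epi had 211 to 219 in B6/CAST and 70.4 to 114 in matDKO/CAST, while the paternal copy had 43.6 to 75.9 and 70.4 to 83.1. At the upstream start in Epi the maternal copy had 11.9 to 12.9 RPM of H3K4me3 in B6/CAST and 1.79 to 1.90 in matDKO/CAST, against 0.660 to 0.853 and 2.62 to 3.57 on the paternal copy. At the internal promoter in ExE the maternal copy had 0 to 0.212 and 2.22 to 3.37, and the paternal copy 2.64 to 4.24 and 2.96 to 3.11. At each of these the maternal copy differed more between the crosses than the paternal copy did.

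The total signal, from reads of both copies, was then compared between matDKO/CAST and B6/CAST by limma on log2(RPKM + 0.5), a scale that understates the change of low values. At the upstream Grb10 start H3K4me3 was 7.89 and 3.77 RPKM in Epi of B6/CAST, 6.56 and 4.73 in CAST/B6 and 2.06 and 2.77 in matDKO/CAST, with inputs at 0.264 to 0.581. In ExE it was 3.56 and 3.19, 3.17 and 4.33, and 1.26 and 1.29. Both matDKO/CAST pools lay below every wild-type pool of their tissue. The log2 difference from B6/CAST was -1.05 ± 0.24 in Epi (limma adjusted p = 0.0387) and -1.13 ± 0.24 in ExE (adjusted p = 0.0285). It was the 1 peak called of the 14 merged H3K4me3 peaks of the interval in each tissue, against a background of 0.333% of 45650 peaks in Epi and 0.171% in ExE. The Epi call rests on the pool set apart above, since without B6/CAST Epi replicate 1 the difference was -0.56 (limma adjusted p = 0.848). It was also lost without matDKO/CAST Epi replicate 1 (-0.87, adjusted p = 0.208) or 2 (-1.23, adjusted p = 0.124), and the ExE call was lost without either B6/CAST pool (adjusted p = 0.528 and 0.204) or either matDKO/CAST pool (0.106 and 0.221). The ExE call was also lost with the replicate block (-0.98, adjusted p = 0.132), a pseudocount of 1 (adjusted p = 0.0607), input correction (0.0768) and quantile normalization (0.0579), and the Epi call with a pseudocount of 0.1 (adjusted p = 0.100), input correction (0.0889) and quantile normalization (0.156).

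At the internal promoter the totals were 1.85 and 2.07 RPKM in Epi of B6/CAST, 1.01 and 1.57 in CAST/B6 and 3.44 and 3.83 in matDKO/CAST, and in ExE 2.56 and 2.58, 0.854 and 1.18, and 3.16 and 2.61. The matDKO/CAST pools were the highest in both tissues. The difference from B6/CAST was 0.75 ± 0.23 in Epi (limma adjusted p = 0.203), 0.68 without B6/CAST Epi replicate 1 (adjusted p = 0.70), and 0.14 ± 0.23 in ExE (adjusted p = 1), and none passed. The Grb10 H3K27me3 domain held 2.25 and 2.65 RPKM in Epi of B6/CAST, 3.54 and 3.50 in CAST/B6 and 3.78 and 2.36 in matDKO/CAST, differing by 0.25 ± 0.19 (limma adjusted p = 0.676) and by 0.15 without B6/CAST Epi replicate 1 (adjusted p = 0.901), so its total was not called different where its division between the copies was.

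H3K36me3 over the Grb10 gene body was 1.15 and 0.955 RPKM in Epi of B6/CAST, 1.52 and 1.56 in CAST/B6 and 0.558 and 0.454 in matDKO/CAST. In ExE it was 1.33 and 1.19, 1.24 and 1.26, and 0.477 and 0.434. The 4 matDKO/CAST values lay below the inputs of that cross, and all 8 wild-type values lay above their inputs. The difference from B6/CAST was -0.88 ± 0.08 in ExE (limma adjusted p = 0.0210, where 0.0470% of 17012 bodies were called) and -0.62 ± 0.08 in Epi (adjusted p = 0.0780, where 0.0411% were called). An edgeR test on reads recovered from the RPKM values called both (log2 -1.13 in Epi and -1.49 in ExE, edgeR adjusted p = 6.37e-08 and 8.96e-12), and it called 13 of 16959 bodies in Epi and 1634 in ExE. The ExE call held in 2 of the 12 fits that left out 1 library, those without a B6/CAST Epi pool. It was lost in the other 10 (limma adjusted p up to 0.210), at differences between -0.94 and -0.82, and also with the replicate block (-0.80, adjusted p = 0.108) and under quantile normalization (-0.65, adjusted p = 0.156). Ddc beside it differed by 0.08 ± 0.07 in Epi and -0.06 ± 0.07 in ExE (limma adjusted p = 0.800 and 0.645), and Fignl1 by -0.04 ± 0.09 and -0.43 ± 0.09 (adjusted p = 0.939 and 0.0834). Beside these, the 6 measured visceral endoderm markers had a median difference in body H3K36me3 of 0.08 in Epi and -0.43 in ExE, where the median over all bodies was 0.02 and -0.01, and their part in the ExE values was not tested.

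**Figure D4:**
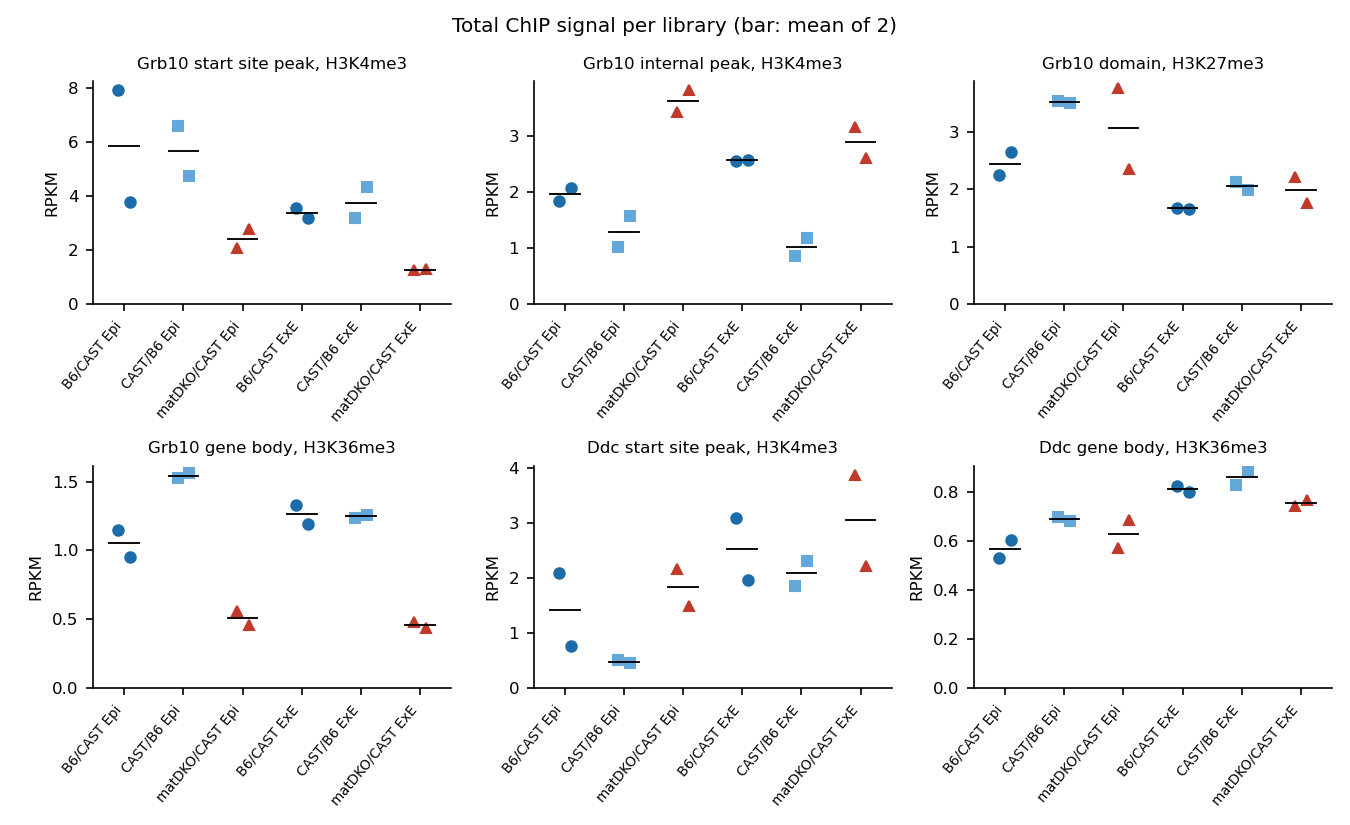
Total signal in RPKM (y axis, from 0) at 6 regions and marks named above each panel, by cross and tissue (x axis); each point is 1 library and the bar is the mean of 2. Grb10 H3K36me3 in matDKO/CAST sits between 0.434 and 0.558 against 0.955 to 1.56 in the wild-type libraries, and Ddc start H3K4me3 in CAST/B6 sits at 0.448 and 0.512 in Epi and at 1.86 and 2.31 in ExE.

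Between the tissues, Ddc carried more H3K4me3 at its start in ExE. It was 2.08 and 0.767 RPKM in Epi of B6/CAST and 0.512 and 0.448 in CAST/B6, and 3.08 and 1.97 in ExE of B6/CAST and 1.86 and 2.31 in CAST/B6, with inputs at 0.361 to 0.663. The ExE pools lay above the Epi pools of CAST/B6, whereas B6/CAST Epi replicate 1 reached into the ExE range. The log2 difference, ExE over Epi, was 1.06 ± 0.19 (limma adjusted p = 4.26e-05) and 1.31 without B6/CAST Epi replicate 1 (adjusted p = 1.17e-05). Of the 14 merged H3K4me3 peaks of the interval 5 were called, 3 higher and 2 lower in ExE, against a background of 28.8% and 18.9% of all peaks, so this share is near the background. The other 2 higher ones lie between Ddc and Grb10 at 11907000 and 11913500 (0.51 ± 0.20 and 0.65 ± 0.19), the first lost without any 1 of 4 wild-type libraries (adjusted p 0.0909 to 0.201), and the lower ones are at the starts of 1700042O10Rik (-0.46 ± 0.18) and Grb10. Over 2 kb around the Ddc start alone the difference missed the threshold (limma adjusted p = 0.0645), but it passed without B6/CAST Epi replicate 1 (1.32, adjusted p = 0.0361).

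H3K36me3 over the Ddc body was 0.529 and 0.602 RPKM in Epi of B6/CAST and 0.695 and 0.679 in CAST/B6, and 0.824, 0.798, 0.828 and 0.888 in the matching ExE pools. The Epi values fall among the inputs over the same body, 0.506 to 0.669, or just above, and the ExE values lie above their inputs. The log2 difference was 0.25 ± 0.05 (limma adjusted p = 0.00465), where the median over all bodies was 0.11 and 38.1% of bodies were higher and 8.34% lower. Under quantile normalization, which brought that median to 0.00, the Ddc difference was 0.02 (adjusted p = 0.825) and that of Fignl1 went from 0.42 (adjusted p = 0.00106) to 0.03 (adjusted p = 0.841). Beside this, 6 of 6 measured visceral endoderm markers had more H3K36me3 in ExE and 3 of 7 more promoter H3K4me3 (Apob, Cubn and Ttr) with 1 lower (Sox17), and their part in the Ddc values was not tested. H3K27me3 at the Ddc promoter stayed between 0.113 and 0.544 RPKM in all 12 libraries.

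Grb10 went the other way at its upstream start, with less H3K4me3 in ExE by 0.58 ± 0.17 (limma adjusted p = 0.00628), but without B6/CAST Epi replicate 1 this was -0.34 (adjusted p = 0.124). The H3K27me3 domain was lower in ExE, at 1.67, 1.67, 2.13 and 2.00 RPKM against 2.25, 2.65, 3.54 and 3.50 in Epi, with no overlap. The difference was -0.55 ± 0.14 (limma adjusted p = 0.00451), and -0.59 without B6/CAST Epi replicate 1 (adjusted p = 0.00769), where 45.2% of H3K27me3 peaks were higher and 8.68% lower in ExE. Grb10 H3K36me3 was not called (-0.02 ± 0.06 over the body, limma adjusted p = 0.823), yet under quantile normalization the difference was -0.34 (limma adjusted p = 0.00784). The internal promoter differed by 0.05 ± 0.16 (adjusted p = 0.842).

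Around Grb10, 34 genes of insulin and IGF signalling had a measured promoter. Between the tissues 1 was higher in ExE for H3K4me3 and 3 were lower, against 2.01% and 7.76% of all promoters, with a median of -0.14 beside -0.02 over all genes. The higher one was Igf2, the growth factor itself, at 3.38 ± 1.41 RPKM (SD, n = 4) in ExE and 0.782 ± 0.460 in Epi. The lower ones were Igfbp2 and Igfbp5, which bind IGFs, and Insrr, an insulin receptor relative. Under quantile normalization 5 were higher and 7 lower, where the calls over all promoters rose from 2030 to 4616 of 20780. For promoter H3K27me3 2 were higher (Igfbp2 and Irs1) and 6 lower, Igf2, Igf2r and Insr among them, with a median of -0.11 beside -0.05, where 5.64% of all promoters were higher and 9.42% lower, and with 5 and 5 under quantile normalization, where 3547 of all promoters were called in place of 3129. For body H3K36me3 21 of 32 were higher and 4 lower (Igf1r, Igfbp2, Irs1 and Irs2), against 38.1% and 8.34% of all bodies, with a median of 0.32 beside 0.11. Under quantile normalization these were 5 and 5, and the calls over all bodies went from 7905 to 2889 of 17012. Around Ddc, 16 genes of monoamine synthesis and transport had 0 promoter H3K4me3 calls by limma (4 at an unadjusted p under 0.05, and 2 higher and 2 lower under quantile normalization), 4 higher and 4 lower for H3K27me3, and 4 higher and 1 lower of 15 for H3K36me3, against the same shares of all promoters and bodies. Under quantile normalization 3 were higher and 3 lower for H3K27me3, and 1 (Pts) was higher and 0 lower for H3K36me3. Between matDKO/CAST and B6/CAST 0 genes of either list were called by limma. At an unadjusted p under 0.05 the insulin and IGF list had 0, 11 and 2 genes in Epi and 2, 4 and 8 in ExE for H3K4me3, H3K27me3 and H3K36me3. Over all genes the same counts were 356 and 2987 of 20780 promoters and 1477 of 17012 bodies in Epi, and 490, 1210 and 3417 in ExE, so the list counts are not read as a result about the lists.

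By Euclidean distance over the per-library log2 maternal over paternal ratios of H3K4me3, with no test, the peaks most like the upstream Grb10 start were sought among 11892 in Epi and 15462 in ExE. The Grb10 peak itself did not meet the read minimum set for these, and its ratios in matDKO/CAST rest on 3 to 19 reads a library. In Epi they lay nearest to Cdkn1c, H19, Osbpl5, Kcnq1 and 2900006K08Rik, and in ExE nearest to Phlda2, Igf2r, R74862, Cd81 and H19. The nearest, Cdkn1c, a cell cycle inhibitor, had a maternal share of 84.5% in the summed wild-type reads of Epi and 53.8% in matDKO/CAST. In ExE, Phlda2, a gene that restrains placental growth, had 88.9% and 51.5%, and Igf2r, the receptor that clears IGF2, had 85.7% and 52.7%. H19, a noncoding RNA gene, was high in both, at 94.3% and 92.6% in Epi, and the ExE peak near R74862 had 78.2% and 76.0%. Over the promoter H3K4me3 and H3K27me3 of 24 libraries, the genes most like Grb10 among 20780 were Dchs1, Ascl2, Col19a1, Nfatc2 and Kcnq1. The mean of Grb10 was 5.16 RPKM for H3K4me3 and 5.72 RPKM for H3K27me3, and that of Dchs1 was 5.14 and 5.67. Those most like Ddc, with means of 2.22 and 0.298 RPKM, were Card6, Smlr1, Arl14, Rab17 and Phldb2.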

How the data were processed

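Native ChIP-seq of H3K4me3, H3K27me3 and H3K36me3 and input libraries from pooled E6.5 Epi and ExE were analysed (51 libraries in 24 groups). Trim Galore 0.4.4 and Bowtie2 2.3.2 are named in the submitters' processing notes, and per the study's methods reads were split by parental strain with SNPsplit, with a second step against 129 for matDKO/CAST that adds maternal reads only. The authors deposited, for each mark and tissue, counts of maternal and paternal reads per peak, the peaks having been called by them with chromstaR per cross and merged per tissue. The authors deposited RPKM values in 1 kb windows for every library, and all of these values were whole multiples of 1 read (100% within a tolerance of 0.02). The peak lists were deposited by the authors with a score column that is 0 throughout, of which only the positions were used. Columns of other series numbered 0.

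Peaks with at least 20 reads in 1 allele column of a wild-type library were tested with edgeR 4.0.16 (quasi-likelihood, TMM), with both allele columns of a library from the same pool, and p-values were adjusted over each table. Totals were RPKM averaged over the windows that overlap peaks, promoters (1000 bases to either side of the start) and gene bodies of at least 5000 bases, and tested with limma 3.58.1 (trend) on log2(RPKM + 0.5). Single values were compared across libraries by exact permutation tests. Alternatives were DESeq2 1.42.0, library totals, scaling to chromosome 11, no filter, a replicate block, other pseudocounts, input correction, quantile normalization and leaving out each library. An edgeR test on the recovered reads was added after seeing the data. Scripts were tested on simulated data. Genes came from GENCODE M21. The genes named are Grb10, Ddc, each gene and peak of the interval and the 5 peaks and genes most like them. The members and gene lists were chosen with earlier results of these data known. Figures were drawn with matplotlib 3.10.9, exact tests used scipy 1.17.1, and tables were handled in pandas 2.3.3 with numpy 2.4.6 under Python 3.11.15, beside R 4.3.3.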

Additional observations from a re-analysis of the deposited data

How the results depend on the processing

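Over 2666 alternatives of 221 results, 0 called values reversed, and 117 values that were not called changed sign. Depth limits the H3K4me3 comparisons of matDKO/CAST, which rest on 3 to 32 strain-specific reads a library at Grb10, and 2 pools a group limit all tests. Since each pool of chromatin was split between the antibodies, a replicate number may tie the marks of 1 cross and tissue, but the tests compare groups within a mark, where the numbers are shared in name only: same-numbered libraries of a mark correlated between -0.350 and 0.345 over 24 pairs of groups, 3 of them above 0.1. With the replicate block the strain effect was called at 7 peaks in place of 4, and the other counts stayed within 1.5 times. The block moved the matDKO/CAST difference in ExE to -0.98 at the Grb10 start (limma adjusted p = 0.132) and to -0.80 over the Grb10 body (adjusted p = 0.108). The causes of the shifts given here were not tested.

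With DESeq2 the difference in parental bias from matDKO/CAST was -1.66 for Grb10 H3K36me3 in Epi (adjusted p = 0.383) and 5.11 at the internal promoter in ExE (adjusted p = 0.30). With an added count of 1 the tissue difference in H3K4me3 bias at the Grb10 start was -0.58 (exact p = 0.0286, not adjusted over the regions). For total H3K4me3 at the Grb10 start, ExE minus Epi was -0.34 under quantile normalization (limma adjusted p = 0.0960). Its matDKO/CAST difference in Epi was -1.16 with a pseudocount of 0.1, -0.93 with input correction and -1.10 with quantile normalization, and in ExE -0.94 with a pseudocount of 1, -1.02 with input correction and -1.21 with quantile normalization, none called. The Grb10 H3K36me3 peak was called lower in matDKO/CAST under quantile normalization in Epi (-0.66) and on recovered reads in Epi (-0.82) and ExE (-1.12). Over gene bodies, ExE minus Epi was 0.024 (quantile) and 0.18 (recovered reads) for Ddc, neither called, and -0.34 and -0.24 for Grb10, both called. The Grb10 body difference from matDKO/CAST was -0.85 (quantile) and -1.13 (recovered reads) in Epi, both called, and -0.65 (quantile) in ExE, not called.

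Within a cross, leaving out 1 library leaves a single one, so no fit was made. The values are log2 ratios of single libraries, with 0.5 added to each count and scaled to the autosomes of the library. Maternal over paternal, these ratios ranged from -5.24 to -5.01 for CAST/B6 Epi H3K27me3, 1.46 to 2.20 for B6/CAST Epi H3K36me3, 3.62 to 4.03 and 3.94 to 4.03 at the Epi Grb10 start in B6/CAST and CAST/B6, 3.60 to 3.65 at the ExE start in CAST/B6, 0.67 to 1.21 there in matDKO/CAST, and -5.26 to -3.82 and -3.66 to -2.08 at the ExE internal promoter in B6/CAST and CAST/B6. In refits that left out 1 library at a time, the difference in bias from matDKO/CAST ranged from -2.16 to -1.42 for Epi H3K36me3, -5.06 to -4.42 at the Epi start and 3.96 to 6.39 at the ExE internal promoter. Total H3K4me3 at the Grb10 start ranged from -0.82 to -0.34 for ExE minus Epi, and from -1.54 to -0.56 in Epi and -1.20 to -1.06 in ExE for matDKO/CAST. The H3K36me3 difference from matDKO/CAST in ExE ranged from -0.75 to -0.65 for the Grb10 peak and -0.94 to -0.82 for its body.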
